A study of Mus musculus with 60 samples.

Results

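The values of 44 DNA damage and repair genes were followed through preimplantation development in mouse embryos made by mating or by somatic cell nuclear transfer (NT), and in the donor cells of the NT embryos. The members were all genes of the expression table whose Ensembl identifier maps to a symbol of the list, and all 44 were found among 27238 genes. By role they comprised 7 genes of damage sensing and signalling, 3 genes of the MRN complex, 7 of homologous recombination, 5 of end joining, 8 of base excision and single-strand break repair, 8 of nucleotide excision repair, 3 of mismatch repair and 3 of the Fanconi anaemia pathway. A second list of 106 other DNA repair genes gave the surrounding pathway.

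Each embryo library was made from 1 whole embryo, with 3 libraries in each of 20 groups and 60 in all. In vivo embryos came from superovulated C57BL/6 females mated with DBA2 males and were collected from the females from the 1-cell stage through the 2-cell, 4-cell and 8-cell stages to morula and blastula. NTC embryos carried the nucleus of a BDF1 cumulus cell (CC, the cells that surround the oocyte) in an enucleated BDF1 oocyte, and NTM embryos that of a BDF1 mouse embryonic fibroblast (MEF). MEFs came from fetuses, had been passaged in culture and were arrested before S phase by low serum. CCs were taken off the oocytes of superovulated adult females. All groups therefore shared the C57BL/6 and DBA2 hybrid background in their nuclei. The oocyte came from a C57BL/6 female for in vivo embryos and from a BDF1 female for NT embryos. Both kinds of NT embryo were activated with strontium chloride in cytochalasin B and Scriptaid, a histone deacetylase inhibitor, and then grew in vitro. Nuclear transfer, activation, Scriptaid, culture and the strain of the oocyte therefore cannot be told apart in a comparison with in vivo embryos. Embryos were chosen by morphology. The protocol mentions several independent collections for each stage but does not say which library came from which, so p-values measure the spread between these embryos.

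Cells meet DNA damage with kinases that sense it and halt the cycle and with separate repair routes for each kind of lesion. Base excision repair removes single altered bases, nucleotide excision repair removes bulky adducts, mismatch repair corrects replication errors, and breaks across both strands are rejoined directly or copied from the sister chromatid. The cleavage embryo starts on RNA stored in the oocyte, replaces it with its own transcripts from the 2-cell stage on, and passes through short cycles with little growth.

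Values are RPKM, the reads of a gene per kilobase of exon, scaled to the library's total of reads on genes, as deposited. The libraries held 5294167 to 47830132 reads on genes (median 15451428), as worked out from the steps between low RPKM values at the annotated exon lengths, so 3 reads on a transcript of 2000 nt, the most that a value of 0 allows by counting alone, equal 0.0314 to 0.283 RPKM. The poly(A)-tailed cDNA was amplified without molecular identifiers, so this limit covers counting error only. The in vivo 4-cell libraries stood apart, with a correlation of 0.944 to 0.958 among themselves and at most 0.746 on average with another group, and with 5.68% to 8.87% of reads from mitochondrial genes against 29.6% to 40.4% in NT 4-cell embryos. In vivo blastulas held 9 to 13 members at 1 RPKM or more, against 17 to 31 in NT blastulas. Over all genes 4524 to 4654 reached that level in in vivo and 6928 to 8815 in NT blastulas. In vivo 1-cell replicate 1 had the fewest genes above 0 of its group (9491) and 21 members at 1 RPKM or more. Of 14 fibroblast markers the summed level was 5929 to 8792 RPKM in MEF and 3.33 to 4.22 RPKM in CC libraries, and of 14 cumulus markers 1348 to 2067 RPKM in CC and 502 to 1216 RPKM in MEF libraries, so the cumulus sum separates the donors less clearly. In embryos the cumulus sum was at most 127 RPKM, in 1 in vivo blastula. The sum of 14 maternal oocyte transcripts was 2511 to 6834 RPKM in 1-cell and 2-cell libraries and 33.2 to 594 RPKM in later embryos, and that of 10 trophectoderm markers was 173 to 1136 RPKM in blastulas and 7.10 to 177 RPKM in earlier embryos. Results that rest on the in vivo 4-cell, in vivo blastula or in vivo 1-cell libraries are given below with single libraries left out.

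Most members were read at low levels, and most had their highest group mean at the 1-cell or the in vivo 4-cell stage. Over the 54 embryo libraries 8 members averaged 10 RPKM or more and 6 averaged under 1 RPKM. The highest group mean, on the log2(RPKM + 1) scale, lay in a 1-cell group for 18 members, in the in vivo 4-cell group for 16, in an NT 4-cell group for 5 and in a later or 2-cell group for 5. The lowest lay in the in vivo blastula for 19 members. The shares of all genes with these highest and lowest groups were not worked out. Genes at 1 RPKM or more numbered 8917 to 9566 in in vivo 4-cell and 4524 to 4654 in in vivo blastula libraries. In 1-cell libraries they numbered 6185 to 8631 in in vivo, 9186 to 9290 in NTC and 7927 to 8228 in NTM embryos. Of all members 41 passed the test in at least 1 of 46 group comparisons and Chek1 in the most, 15. Mre11a, Atr and Xpc passed in none. The share of all genes that passed at least once was not worked out.

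**Figure D1:**
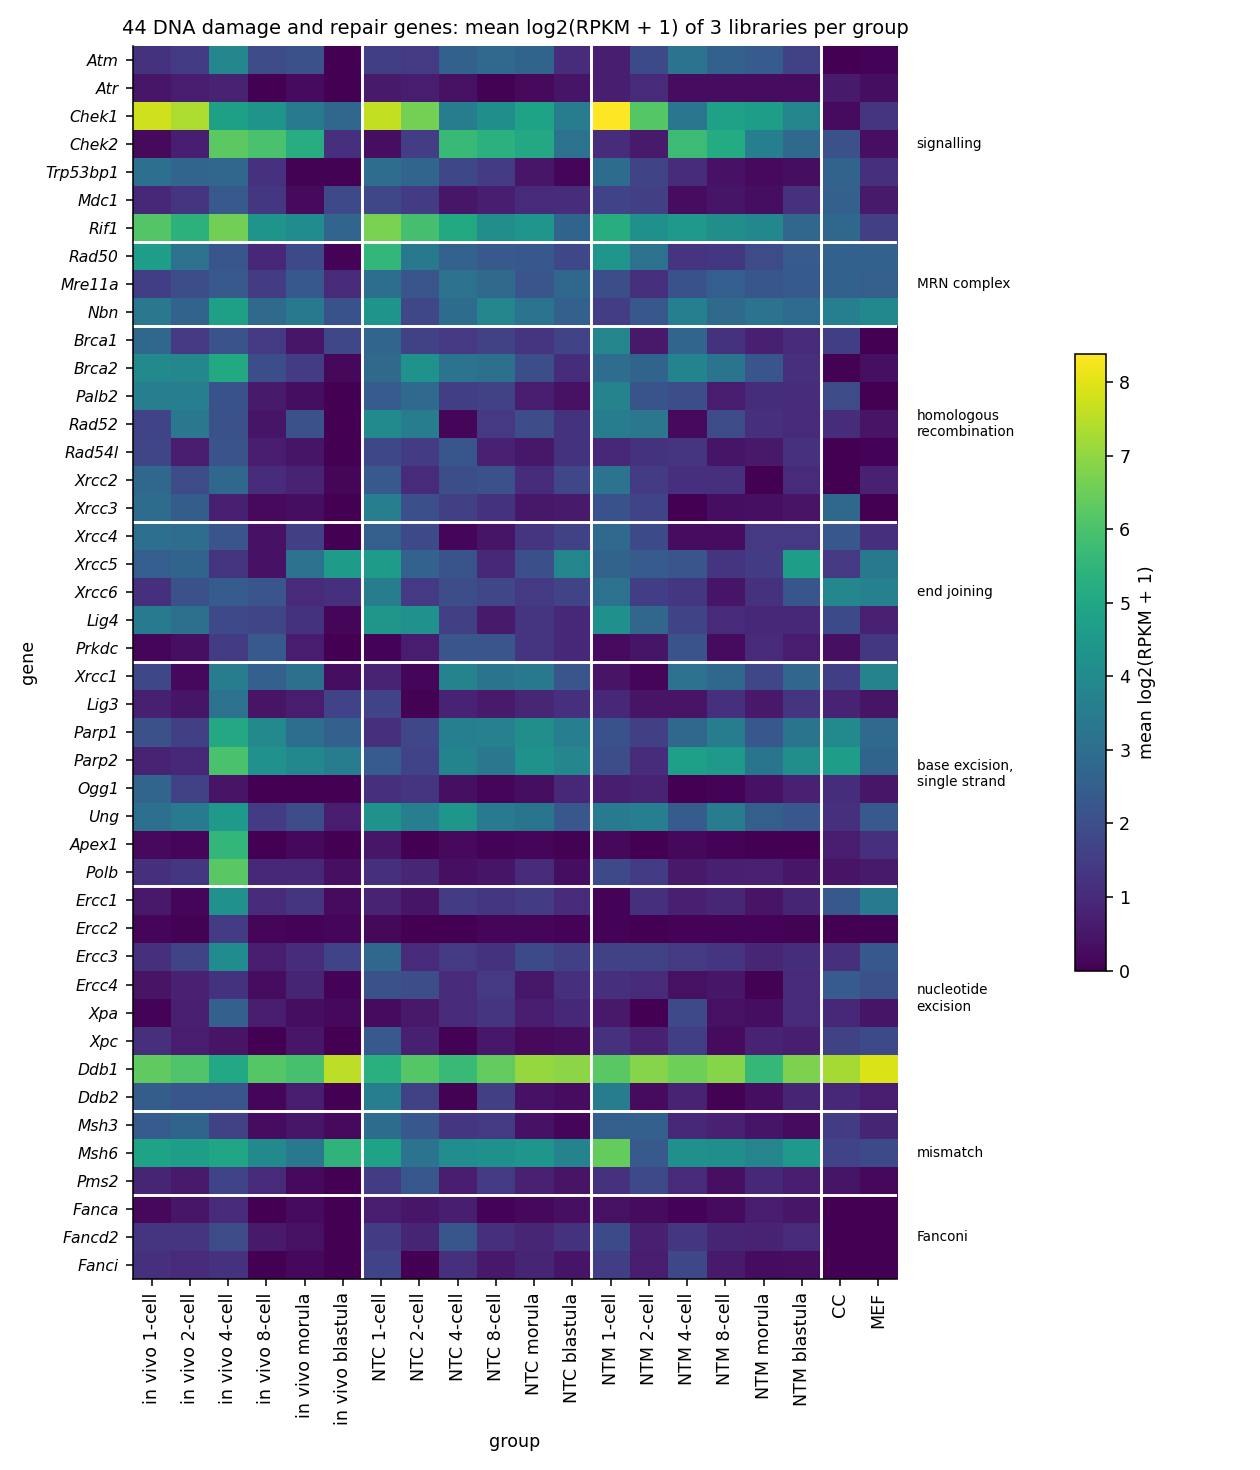
Mean log2(RPKM + 1) over 3 libraries for each of the 44 genes (vertical, ordered by role) in each of 20 groups (horizontal), on a colour scale from dark purple (0) to yellow (highest). Chek1 is bright at the 1-cell and 2-cell stages, Ddb1 in all groups, and the in vivo 4-cell column holds the highest mean of 16 genes.

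Among the genes of sensing and signalling, the transcripts of the 2 checkpoint kinases exchanged places at the step from 2 to 4 cells in all 3 embryo types. Chek1 encodes the kinase that acts below Atr at stalled replication forks, and Chek2 the kinase that acts below Atm at breaks. Chek1 had the highest mean level of this role. It measured 189.7, 247 and 216 RPKM in in vivo 1-cell embryos, 145, 162 and 176 RPKM at the 2-cell stage and 24.6, 21.3 and 33.9 RPKM at the 4-cell stage. All early libraries lay far above all 4-cell libraries, and Chek1 fell from the 2-cell to the 4-cell stage (log2 fold change -2.57 ± 0.33, adjusted p = 0.000546; limma, Benjamini-Hochberg over all genes tested, and ± is the SE). In NTC embryos the 2-cell libraries held 127, 101 and 74.0 RPKM and the 4-cell libraries 5.52, 6.79 and 27.8 RPKM, again without overlap (log2 fold change -3.13 ± 0.60, adjusted p = 0.00423). In NTM embryos they held 74.3, 102 and 46.01 RPKM and 10.1, 12.8 and 5.17 RPKM (log2 fold change -2.86 ± 0.61, adjusted p = 0.00989). In NTM embryos the step before passed as well, with 1-cell libraries at 354, 326 and 318 RPKM, above all their 2-cell libraries (log2 fold change -2.22 ± 0.33, adjusted p = 0.00585). Every in vivo and NTC 1-cell library also lay above every 2-cell library of its type, but that step did not pass in either.

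Chek2 went the other way and had the widest range of group means in this role. The in vivo 2-cell libraries held 0.125, 0.0480 and 2.78 RPKM and the 4-cell libraries 61.7, 70.7 and 99.9 RPKM (log2 fold change 5.54 ± 0.57, adjusted p = 0.000223). NTC embryos went from 0.310, 2.03 and 4.97 RPKM to 37.7, 62.0 and 50.01 RPKM (log2 fold change 4.12 ± 0.60, adjusted p = 0.00123). NTM embryos went from 1.17, 0.581 and 0.0538 RPKM to 25.1, 70.0 and 82.1 RPKM (log2 fold change 5.13 ± 0.70, adjusted p = 0.00159). In each type the lowest 4-cell library was above the highest 2-cell library, and Chek2 stayed high at the 8-cell stage, with 63.1, 57.2 and 64.3 RPKM in vivo, 29.3, 50.8 and 42.2 RPKM in NTC and 39.3, 35.6 and 29.1 RPKM in NTM embryos. It fell again from the NTC morula (30.4, 39.3 and 28.3 RPKM) to the NTC blastula (8.98, 6.16 and 8.94 RPKM; log2 fold change -1.90 ± 0.34, adjusted p = 0.0143).

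The promoters of Chek1 and Chek2 are printed because their transcripts moved in opposite directions at the same step. They are the 250 bases before the RefSeq start site in build GRCm38.p6, 5′ to 3′ along the gene, with capitals for the motifs searched on both strands (the CCAAT box, the GC box as GGGCGG, the E2F motif as TTTCCCGC and the E-box as CACGTG, none of which overlap another here).
Chek1 promoter, chr9:36726659-36726908, - strand: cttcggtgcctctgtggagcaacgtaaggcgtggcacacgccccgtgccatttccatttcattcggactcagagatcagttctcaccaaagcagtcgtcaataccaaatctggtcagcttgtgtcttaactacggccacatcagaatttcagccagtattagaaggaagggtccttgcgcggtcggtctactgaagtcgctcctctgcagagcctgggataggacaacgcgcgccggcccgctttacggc
Chek2 promoter, chr5:110839733-110839982, + strand: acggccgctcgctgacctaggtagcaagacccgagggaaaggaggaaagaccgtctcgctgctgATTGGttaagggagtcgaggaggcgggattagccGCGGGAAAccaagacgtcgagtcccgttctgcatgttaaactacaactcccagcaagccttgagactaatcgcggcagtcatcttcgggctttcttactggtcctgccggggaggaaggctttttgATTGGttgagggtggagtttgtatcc
The Chek1 window held none of the 4 motifs. It lies inside the Chek1 gene as annotated in GENCODE M21 (36708482 to 36727065), and the bases before that start were not searched. The Chek2 window held CCAAT in 2 places, both read on the other strand as ATTGG, and TTTCCCGC in 1, also read on the other strand. Of 32851 promoters of this length 33.8% held CCAAT and 0.895% held TTTCCCGC, and of the 34 members with a promoter in the reference 17 and 4 did. TTTCCCGC was also found before Mdc1, Brca2 and Xrcc6.

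**Figure D2:**
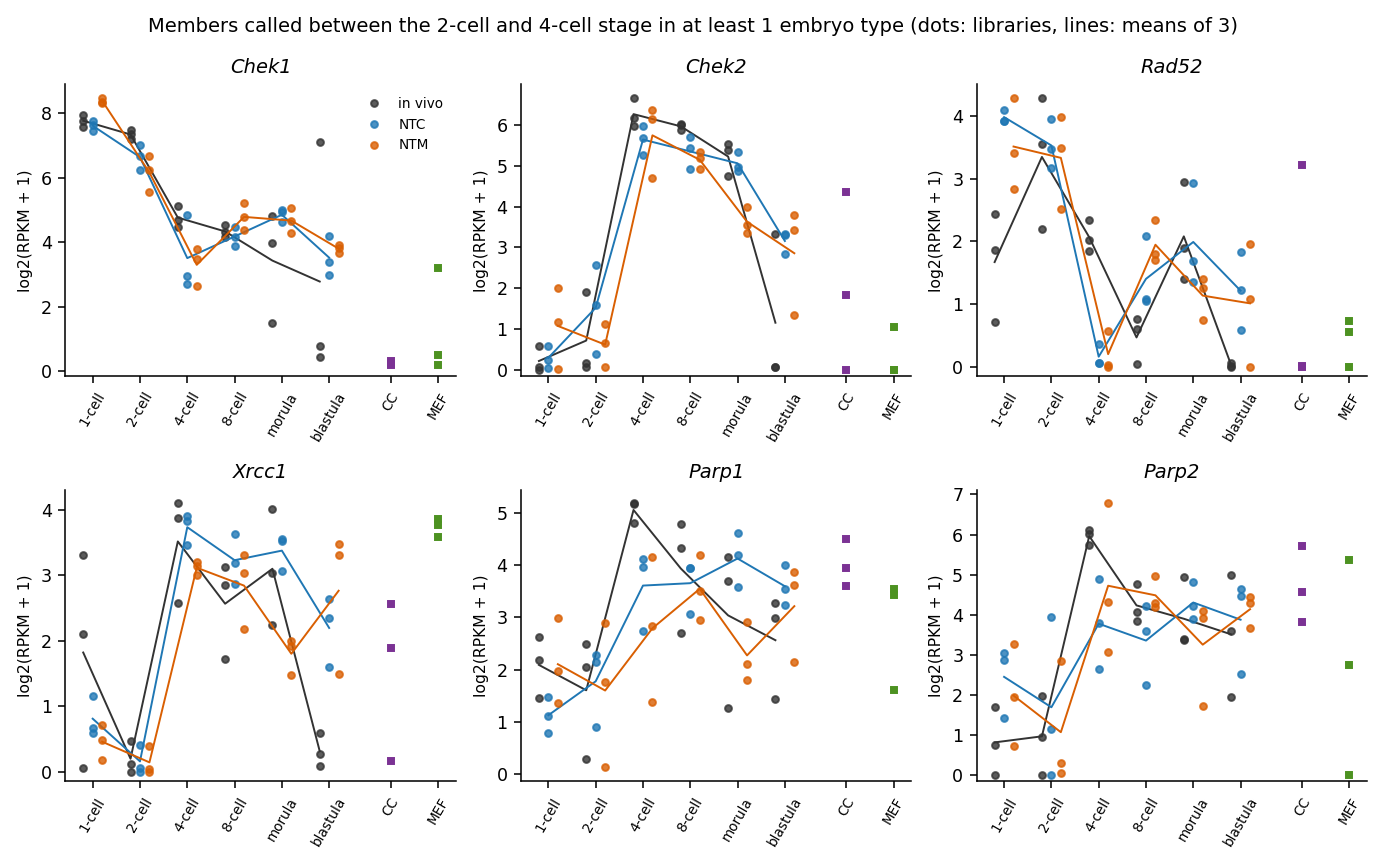
log2(RPKM + 1) (vertical) of Chek1, Chek2, Rad52, Xrcc1, Parp1 and Parp2 at the 6 stages (horizontal) for in vivo, NTC and NTM embryos and in CC and MEF libraries (squares), with 1 point per library and a line through the embryo group means. Chek1 drops and Chek2 rises from the 2-cell to the 4-cell points in all 3 embryo types.

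The kinases above them were read at lower levels. Atm, the kinase activated at double-strand breaks, rose between the in vivo 2-cell (2.75, 0.0418 and 4.33 RPKM) and 4-cell libraries (16.6, 14.8 and 10.2 RPKM; log2 fold change 2.41 ± 0.64, adjusted p = 0.0158) and fell to 4.14, 2.13 and 2.58 RPKM at the 8-cell stage (log2 fold change -1.92 ± 0.39, adjusted p = 0.00583). All 3 in vivo 4-cell libraries exceeded both neighbouring stages. In vivo blastulas were the lowest embryo group for Atm, at 0.00787 ± 0.00684 RPKM (mean ± SD, n = 3). Atr, the kinase recruited to single-stranded DNA, had group means of 0.00632 RPKM (in vivo blastula) to 1.08 RPKM (NTM 2-cell), entered 19 of the 46 comparisons and passed the test in none.

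Rif1, Trp53bp1 and Mdc1 act at the chromatin beside a break. Rif1, which protects broken ends and also sets replication timing, was read at 131, 79.7 and 81.7 RPKM in the in vivo 4-cell libraries and 28.5, 18.1 and 14.1 RPKM at the 8-cell stage, a fall without overlap (log2 fold change -2.23 ± 0.36, adjusted p = 0.00206). In NTC embryos it fell at the last step, from 21.8, 17.9 and 19.1 RPKM in morulae to 4.71, 7.40 and 4.76 RPKM in blastulas (log2 fold change -1.66 ± 0.35, adjusted p = 0.0268). Trp53bp1, the break-site reader that favours end joining, was highest in in vivo 1-cell embryos (4.94, 12.2 and 6.28 RPKM) and lowest in in vivo morulae (0, 0.0385 and 0.0826 RPKM). Those groups were picked as its highest and lowest, so their separation is not a test, and no step between successive stages passed for Trp53bp1. Mdc1, which binds the phosphorylated histone H2AX, reached its highest embryo mean at the in vivo 4-cell stage (5.73, 2.95 and 3.85 RPKM). Of the Trp53bp1 exon bases 15.0% lie opposite exons of Tubgcp4, and counting by strand is not stated.

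The MRN complex holds broken ends together and calls in Atm. Rad50, its tethering subunit, had the widest range of the 3 genes and was an early transcript. In NTC embryos the 1-cell libraries held 21.3, 69.5 and 65.5 RPKM and the 2-cell libraries 6.76, 13.6 and 9.17 RPKM, without overlap (log2 fold change -2.17 ± 0.48, adjusted p = 0.0191). In in vivo embryos the 1-cell values were 6.91, 36.2 and 56.8 RPKM and the 2-cell values 18.2, 1.77 and 12.7 RPKM, groups that overlap (log2 fold change -1.52 ± 0.92, adjusted p = 0.82). In vivo blastulas were at 0, 0.174 and 0 RPKM, the lowest group. Nbn, the subunit that binds Atm, had the highest mean of this role and measured 23.9, 35.6 and 20.6 RPKM in in vivo 4-cell embryos, its highest group. Mre11a, the nuclease, had group means between 1.64 RPKM (NTM 2-cell) and 9.78 RPKM (NTC 4-cell), was tested in all 46 comparisons and passed in none.

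Homologous recombination copies the sister chromatid, and Brca1, Palb2 and Brca2 form the chain that loads the recombinase on the broken end. Brca2 had both the highest mean and the widest range of this role. It was read at 54.2, 30.3 and 21.7 RPKM in in vivo 4-cell and 8.24, 2.05 and 1.41 RPKM in in vivo 8-cell embryos, which do not overlap (log2 fold change -3.06 ± 0.59, adjusted p = 0.00469). Palb2, the bridge between Brca1 and Brca2, was high early, with 10.3, 11.8 and 11.3 RPKM and 10.4, 6.53 and 18.5 RPKM at the in vivo 1-cell and 2-cell stages. It fell to 3.5, 2.61 and 3.97 RPKM at the 4-cell stage, below every earlier library (log2 fold change -1.46 ± 0.45, adjusted p = 0.0283), and further to 2.06, 0 and 0.164 RPKM at the 8-cell stage (log2 fold change -1.5 ± 0.51, adjusted p = 0.0435). Of 12 alternative settings, described with the methods, the first call was kept in 7 and the second in 2. Brca1, the first of the chain, fell and rose again in NTM embryos, where the 1-cell libraries held 11.6, 11.7 and 16.9 RPKM, the 2-cell libraries 0.126, 1.93 and 0.0189 RPKM and the 4-cell libraries 3.89, 8.66 and 5.35 RPKM. Its 2-cell libraries lay below all others of both neighbouring stages, and both steps passed (fall: log2 fold change -3.24 ± 0.61, adjusted p = 0.0144; rise: log2 fold change 2.16 ± 0.69, adjusted p = 0.0493). The fall was kept in 8 of 12 alternatives and the rise in 4.

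Rad52, which anneals single strands, was an early transcript in NT embryos. The NTC 2-cell libraries held 8.05, 14.4 and 10.1 RPKM and the 4-cell libraries 0.0364, 0.0440 and 0.288 RPKM (log2 fold change -3.37 ± 0.47, adjusted p = 0.00102). The NTM libraries held 10.3, 14.9 and 4.74 RPKM and 0.490, 0.0178 and 0 RPKM (log2 fold change -3.14 ± 0.66, adjusted p = 0.00933). Every NT 4-cell library was under 1 RPKM, and the in vivo 4-cell libraries were between them and the 2-cell level, at 2.60, 4.06 and 3.05 RPKM (in vivo 2-cell 10.8, 18.5 and 3.61 RPKM; log2 fold change -1.28 ± 0.57, adjusted p = 0.0938). Rad54l, the translocase that helps strand exchange, rose from 2.47, 0.0280 and 0.0707 RPKM in in vivo 2-cell to 3.34, 3.10 and 3.89 RPKM in in vivo 4-cell libraries (log2 fold change 1.5 ± 0.54, adjusted p = 0.0499) and fell to 0.462, 1.60 and 0.0671 RPKM (log2 fold change -1.47 ± 0.44, adjusted p = 0.0281). Each of these Rad54l calls was kept in 3 of 12 alternatives. Xrcc2 and Xrcc3 are relatives of the recombinase. Xrcc2 was highest in NTM 1-cell embryos (5.82, 6.72 and 13.2 RPKM) and lowest in NTM morulae (0, 0 and 0.0137 RPKM). Xrcc3 was highest in NTC 1-cell embryos (11.2, 10.1 and 11.4 RPKM) and 0 in all 3 libraries in in vivo blastulas. These groups were picked as the highest and the lowest of the embryo groups, so their separation is not a test. For both genes no transition between successive stages passed the test.

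End joining seals breaks without a template. Xrcc5 and Xrcc6 encode Ku80 and Ku70, the ring that slides on a broken end. Xrcc5 had the highest mean of this role, with its highest log2 mean in NTM blastulas. NTM morulae measured 0.462, 0.591 and 8.40 RPKM and NTM blastulas 21.5, 29.0 and 23.0 RPKM, without overlap (log2 fold change 3.18 ± 0.69, adjusted p = 0.0296). In vivo blastulas held 116, 11.1 and 8.76 RPKM, a spread wider than the NTM group. Xrcc6 differed between embryo types at the 1-cell stage, with 1.18, 1.54 and 1.10 RPKM in in vivo and 10.7, 9.71 and 11.6 RPKM in NTC embryos (log2 fold change 2.37 ± 0.40, adjusted p = 0.0424). The NTM 1-cell libraries, at 4.01, 14.5 and 7.58 RPKM, also lay above all in vivo ones, but the comparison did not pass (log2 fold change 1.95 ± 0.58, adjusted p = 0.176).

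Lig4 and Xrcc4 form the ligase of this route. Lig4 had the widest range and was high through the 2-cell stage in NTC embryos (23.3, 21.7 and 17.8 RPKM at the 1-cell and 12.1, 20.7 and 23.6 RPKM at the 2-cell stage). It fell to 3.89, 0.794 and 2.04 RPKM at the NTC 4-cell stage, below every earlier library (log2 fold change -2.68 ± 0.54, adjusted p = 0.00536). Xrcc4 fell at the same NTC step, from 3.58, 1.21 and 3.54 RPKM to 0, 0 and 0.231 RPKM (log2 fold change -1.74 ± 0.52, adjusted p = 0.0287), and in in vivo embryos a step later, from 4.77, 3.73 and 2.52 RPKM to 0.846, 0.218 and 0.0409 RPKM (log2 fold change -1.79 ± 0.41, adjusted p = 0.0101). Prkdc, the catalytic subunit that Ku recruits, rose from 0.122, 0.387 and 0.294 RPKM to 1.36, 1.97 and 1.97 RPKM from the in vivo 2-cell to 4-cell libraries (log2 fold change 1.12 ± 0.35, adjusted p = 0.03) and was at 3.85, 3.36 and 5.21 RPKM at the 8-cell stage. Every 4-cell library was above every 2-cell library. Prkdc kept this call in 4 of 12 alternatives. Its lowest embryo group was the in vivo blastula, at 0.0579, 0 and 0 RPKM.

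Base excision and single-strand break repair held 6 of the 13 members that rose to the in vivo 4-cell stage. Apex1, the endonuclease that cuts at a site that has lost its base, was close to 0 in every embryo group other than the in vivo 4-cell group. It measured 0.340, 0 and 0 RPKM in in vivo 2-cell, 41.7, 43.7 and 52.9 RPKM in in vivo 4-cell and 0 in all 3 libraries in in vivo 8-cell embryos. The rise (log2 fold change 5.41 ± 0.34, adjusted p = 4.1e-05) and the fall (log2 fold change -5.55 ± 0.34, adjusted p = 3.4e-05) both passed, and no other embryo library reached 1 RPKM. With 3 reads in each 8-cell library as the limit of a value of 0, the fall is at least 226-fold. NTC 4-cell embryos measured 0.0737, 0.237 and 0.137 RPKM and NTM 4-cell embryos 0, 0 and 0.458 RPKM.

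The Apex1 promoter is printed because the gene was read at 1 RPKM or more in the in vivo 4-cell embryos and in no other embryo library, in the same build, length and notation as above.
Apex1 promoter, chr14:50924699-50924948, + strand: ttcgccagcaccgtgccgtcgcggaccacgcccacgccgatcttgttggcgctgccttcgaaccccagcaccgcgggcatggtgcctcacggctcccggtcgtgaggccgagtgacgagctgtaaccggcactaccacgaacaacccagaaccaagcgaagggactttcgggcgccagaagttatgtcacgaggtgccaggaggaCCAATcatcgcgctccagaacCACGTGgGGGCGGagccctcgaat
It held 1 CCAAT, 1 GGGCGG and 1 CACGTG. The GC box was found in 32.7% of the 32851 promoters and in 23 of 34 members, and the E-box in 6.02% of promoters and in 5 members. The gene lies on chromosome 14 at 50924968 to 50927139 (GRCm38, GENCODE M21), and 61.7% of its exon bases lie opposite exons of Pip4p1, a phosphatidylinositol phosphatase gene. Pip4p1 measured 0.179, 0.0160 and 0.0809 RPKM in in vivo 2-cell, 6.56, 9.90 and 8.57 RPKM in in vivo 4-cell and 0.0467, 0.441 and 0.230 RPKM in in vivo 8-cell embryos. It was thus also highest in the in vivo 4-cell libraries, above NTC (0.560, 2.33 and 0.630 RPKM) and NTM 4-cell embryos (0.845, 1.76 and 1.55 RPKM), and the reads of the shared bases cannot be told apart where strand was not counted.

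Polb, the polymerase that fills the gap after Apex1, had the widest range of this role and the same single peak. In vivo embryos measured 0.569, 4.11 and 0.986 RPKM at the 2-cell, 74.4, 56.1 and 99.1 RPKM at the 4-cell and 0.854, 1.61 and 0.421 RPKM at the 8-cell stage. Both steps passed (rise: log2 fold change 4.91 ± 0.53, adjusted p = 0.000274; fall: log2 fold change -5.31 ± 0.40, adjusted p = 7.1e-05), and no library of another embryo group came near the 4-cell level. Lig3, the ligase that works with Xrcc1, followed, at 1.25, 0 and 0.174 RPKM, 5.5, 9.86 and 8.33 RPKM and 0.873, 0.238 and 0.0473 RPKM (rise: log2 fold change 2.65 ± 0.45, adjusted p = 0.0021; fall: log2 fold change -2.69 ± 0.42, adjusted p = 0.00177). Its 4-cell libraries exceeded all 2-cell and 8-cell libraries, but 1 in vivo blastula library was higher still (0, 12.6 and 1.39 RPKM). In NTC embryos Lig3 fell from the 1-cell (1.48, 3.16 and 2.13 RPKM) to the 2-cell stage (0.0116, 0.103 and 0 RPKM; log2 fold change -1.62 ± 0.42, adjusted p = 0.0363). Of the Lig3 exon bases 25.1% lie opposite exons of Rffl.

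Xrcc1, the scaffold of single-strand break repair, and Parp1 and Parp2, the polymerases that mark such breaks with poly(ADP-ribose), all rose at this step in in vivo embryos. Xrcc1 went from 0.387, 0 and 0.0830 RPKM to 4.98, 16.2 and 13.6 RPKM in in vivo (log2 fold change 3.32 ± 0.49, adjusted p = 0.00109), from 0, 0.0430 and 0.324 RPKM to 10.1, 13.2 and 14.0 RPKM in NTC (log2 fold change 3.58 ± 0.46, adjusted p = 0.000675) and from 0.306, 0.0249 and 0 RPKM to 7.83, 7.04 and 8.19 RPKM in NTM embryos (log2 fold change 2.98 ± 0.58, adjusted p = 0.00705). The 2 stages did not overlap in any type. Parp1 rose in in vivo (0.213, 4.60 and 3.11 RPKM to 27.3, 35.8 and 35.2 RPKM; log2 fold change 3.47 ± 0.60, adjusted p = 0.0024) and NTC embryos (3.87, 0.853 and 3.43 RPKM to 16.5, 5.68 and 14.7 RPKM; log2 fold change 1.84 ± 0.60, adjusted p = 0.0403). In NTM embryos its stages overlapped (6.47, 2.39 and 0.0915 RPKM and 6.16, 1.59 and 17.0 RPKM; log2 fold change 1.20 ± 0.97, adjusted p = 0.378).

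Parp2 had the highest mean of this role. It rose in in vivo (0.931, 0 and 2.91 RPKM to 63.8, 68.5 and 52.8 RPKM; log2 fold change 4.99 ± 0.54, adjusted p = 0.000269) and in NTM embryos (6.19, 0.244 and 0.0452 RPKM to 7.49, 109 and 18.9 RPKM; log2 fold change 3.65 ± 1.11, adjusted p = 0.0403). The in vivo 4-cell libraries were alike, whereas the NTM 4-cell libraries spread over more than a decade. In NTC embryos the stages overlapped (0, 1.22 and 14.4 RPKM and 12.8, 5.29 and 28.8 RPKM; log2 fold change 2.08 ± 1.00, adjusted p = 0.136). At the in vivo 8-cell stage Parp2 fell to 15.8, 26.5 and 13.5 RPKM (log2 fold change -1.73 ± 0.34, adjusted p = 0.00503). Ogg1 and Ung are glycosylases that open the pathway. Ogg1, which removes oxidised guanine, fell from the in vivo 2-cell to the 4-cell stage, from 3.46, 2.60 and 0.968 RPKM to 0.174, 0.246 and 0.700 RPKM (log2 fold change -1.22 ± 0.44, adjusted p = 0.0499) and was 0 in all 3 libraries at the in vivo 8-cell stage. All in vivo 1-cell (12, 4.54 and 3.05 RPKM) and 2-cell libraries lay above the 4-cell ones. Ung, which removes uracil, had its highest embryo level at the in vivo 4-cell stage (13.1, 25.5 and 30.2 RPKM) and fell to 1.10, 3.10 and 1.61 RPKM at the 8-cell stage (log2 fold change -3.01 ± 0.46, adjusted p = 0.00158), while NTC embryos kept 11.6, 13.3 and 7.0 RPKM at the 8-cell stage.

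In nucleotide excision repair Ercc1, Ercc2, Ercc3 and Xpa had their highest embryo level at the in vivo 4-cell stage, Ercc4, Ddb2 and Xpc in NTC 1-cell embryos and Ddb1 in in vivo blastulas. Ercc1, which forms a nuclease with the Ercc4 product, had the widest range of this role. In vivo embryos measured 0.311, 0 and 0 RPKM at the 2-cell, 27.7, 17.1 and 12 RPKM at the 4-cell and 2.63, 0.992 and 0.166 RPKM at the 8-cell stage (rise: log2 fold change 4.11 ± 0.41, adjusted p = 0.000207; fall: log2 fold change -3.21 ± 0.53, adjusted p = 0.0023). Every in vivo 4-cell library was above every other embryo library. Ercc3 and Ercc2 encode the helicases of the transcription factor TFIIH that open the helix. Ercc3 measured 3.94, 3.45 and 0.619 RPKM, 8.61, 21.4 and 21.9 RPKM and 0.937, 0.647 and 0.304 RPKM at these stages (rise: log2 fold change 2.37 ± 0.58, adjusted p = 0.0118; fall: log2 fold change -3.40 ± 0.47, adjusted p = 0.000958). Ercc2 measured 0.0773, 0.0173 and 0 RPKM, 1.26, 2.14 and 2.19 RPKM and 0.268, 0.0810 and 0 RPKM (rise: log2 fold change 1.46 ± 0.36, adjusted p = 0.0116; fall: log2 fold change -1.35 ± 0.36, adjusted p = 0.0176). Neither overlapped its neighbouring stages, and Ercc2 stayed under 0.3 RPKM in all other embryo libraries, with 42.4% of its exon bases opposite Gm26852.

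In NTC embryos Ercc3 fell between the 1-cell and 2-cell stages, from 6.90, 7.33 and 4.38 RPKM to 0.508, 1.77 and 0.866 RPKM (log2 fold change -1.84 ± 0.44, adjusted p = 0.0272), without overlap. Ercc4, the other part of the nuclease, varied widely within groups, with 0.0156, 7.24 and 0.0145 RPKM in NTC 4-cell and 9.98, 0.00887 and 0.590 RPKM in NTC 8-cell embryos, and its group means ran from 0.0377 RPKM (NTM morula) to 3.53 RPKM (NTC 8-cell). Xpa, which verifies the lesion, was 0 in all 3 libraries in NTM 2-cell embryos and 3.67, 1.84 and 2.43 RPKM in NTM 4-cell embryos (log2 fold change 1.84 ± 0.58, adjusted p = 0.0451). The rise is at least 24.5-fold against 3 reads in each 2-cell library. Xpa kept this call in 3 of 12 alternatives. In vivo 4-cell embryos, its highest group, spread from 0.873 to 14.4 RPKM (log2 fold change 1.82 ± 0.84, adjusted p = 0.105).

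Ddb1, Ddb2 and Xpc find the damage. Ddb1, the adaptor of Cul4 ubiquitin ligases, had the highest mean of all 44 genes over the embryo libraries (91.6 RPKM) and was lowest at the in vivo 4-cell stage (19.0, 34.5 and 44.2 RPKM) and highest in in vivo blastulas (76.5, 408 and 204 RPKM). It was the only member that rose from the in vivo 4-cell to the 8-cell stage (90.8, 68.8 and 56.6 RPKM; log2 fold change 1.17 ± 0.38, adjusted p = 0.0363). That call was kept in 5 of 12 alternatives. Ddb2, the partner that binds ultraviolet lesions, was highest in NTC 1-cell embryos (12.9, 8.67 and 11.5 RPKM) and fell to 4.55, 1.68 and 0.897 RPKM at the NTC 2-cell stage (log2 fold change -1.97 ± 0.48, adjusted p = 0.0272). NTM embryos fell from 9.27, 13.0 and 10.3 RPKM to 0.448, 0.133 and 0 RPKM (log2 fold change -3.32 ± 0.54, adjusted p = 0.00832). In in vivo embryos the fall from the 4-cell to the 8-cell stage passed, from 4.61, 3.51 and 3.02 RPKM to 0, 0 and 0.315 RPKM (log2 fold change -2.09 ± 0.37, adjusted p = 0.00303). Neither NT type overlapped between the 1-cell and 2-cell stages. Xpc, which recognises distorted helix, was highest in NTC 1-cell embryos (2.39, 4.97 and 5.46 RPKM), 0 in all 3 libraries in in vivo blastulas, and passed the test in none of its 31 comparisons.

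Of the mismatch repair genes, Msh6 had the highest mean and the widest range. Its product binds base mismatches. NTM 1-cell embryos held 81.8, 74.4 and 95.8 RPKM and NTM 2-cell embryos 8.32, 4.66 and 1.40 RPKM (log2 fold change -4.07 ± 0.53, adjusted p = 0.00362). NTC embryos went from 25.0, 30.4 and 28.9 RPKM to 8.80, 10.6 and 5.73 RPKM (log2 fold change -1.67 ± 0.32, adjusted p = 0.0106). Both falls were without overlap. In vivo embryos held 14.9, 45.6 and 31.2 RPKM and 18.8, 28.0 and 27.6 RPKM, a step that did not pass (log2 fold change -0.18 ± 0.59, adjusted p = 0.959). Msh3, whose product binds larger loops, fell from 0.885, 4.83 and 1.91 RPKM to 0.168, 0.249 and 0.184 RPKM in in vivo embryos (log2 fold change -1.40 ± 0.48, adjusted p = 0.044). This call, from the 4-cell to the 8-cell stage, was kept in 2 of 12 alternatives. Pms2, an endonuclease of this pathway, was highest in NTC 2-cell embryos (8.20, 1.45 and 3.93 RPKM) and lowest in in vivo blastulas (0.0157, 0 and 0 RPKM), with no transition passing.

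The Fanconi anaemia genes, which act on crosslinks between strands, were read at low levels. Fancd2 and Fanci form the clamp that is locked on the crosslink. Fancd2 had the highest mean and widest range of the 3 and was highest in NTC 4-cell embryos (3.84, 2.25 and 5.81 RPKM) and 0 in all 3 libraries in in vivo blastulas, with no transition passing. Fanci was 0 in all 3 libraries in NTC 2-cell embryos after 1.71, 3.61 and 1.73 RPKM at the 1-cell stage (log2 fold change -1.70 ± 0.43, adjusted p = 0.0326), a fall of at least 38.0-fold against 3 reads in each library, and fell in in vivo embryos from 0.843, 1.62 and 1.41 RPKM to 0, 0 and 0.0298 RPKM (log2 fold change -1.17 ± 0.34, adjusted p = 0.0255). Fanca, of the complex that loads the clamp, was read at 1.25, 1.06 and 0.837 RPKM in in vivo 4-cell embryos and at the in vivo 8-cell stage is listed at 0 in each library (adjusted p = 0.0336 for the fall). Fanca kept this call in 2 of 7 alternatives, and Fanci its in vivo fall in 3 of 8.

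Counted over the members, the shares that rose on entering and fell on leaving the in vivo 4-cell stage were near those of all genes. Of 44 members tested 13 rose and 3 fell from the in vivo 2-cell to the 4-cell stage, beside 31.4% higher and 20.8% lower among all 12995 genes tested, and the median log2 change was 0.71 over the members and 0.36 over all genes. Base excision repair had 6 of its 8 members among the rises, and nucleotide excision repair 3 of 8. On the way to the 8-cell stage 19 of 41 members fell and Ddb1 rose, beside 39.3% lower and 4.4% higher among 10417 genes, with medians of -1.35 over the members and -1.05 over all genes. With a library scaling by the median ratio, which moved the all-gene median to -0.16, 8 members fell and 3 rose. Scaling to nuclear genes gave 11 fallen and 2 risen at this step, and 11 risen and 6 fallen at the step before. Changes given here are on the scale of the deposited values. Without in vivo 4-cell replicate 2 the rise and fall from the 2-cell stage together counted 10 members in place of 16.

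At the same step fewer members were called in NT embryos, whose 4-cell libraries were less alike. These correlated at 0.842 to 0.866 in NTC and 0.762 to 0.793 in NTM, against 0.944 to 0.958 in in vivo embryos. In 1 fit over all 20 groups the counts were 11 in NTC, 15 in NTM and 19 in in vivo embryos. In NTC embryos 3 of 40 members rose and 4 fell from the 2-cell to the 4-cell stage (all genes 16.4% and 20.1%; median log2 change -0.03 over the members and -0.20 over all genes). In NTM embryos 5 of 39 rose and 2 fell (all genes 12.1% and 14.3%; medians -0.20 and -0.20). Scaling to nuclear genes gave 5 rises and 4 falls in NTC, and median-ratio scaling 3 rises and 2 falls in NTM embryos. One step earlier 6 of 39 members fell in NTC (all genes 8.95%) and 4 of 38 in NTM embryos (all genes 6.68%), and none in in vivo embryos (all genes 0%). Without NTC 1-cell replicates 1, 2 or 3 the NTC count was 2, 0 and 0, and without NTM 1-cell replicates 1, 2 or 3 the NTM count was 2, 2 and 1. Without NTM 2-cell replicates 2 or 3, or NTM 4-cell replicates 2 or 3, the NTM count at the later step was 4 in place of 7. By limma no member passed in in vivo embryos from the 8-cell stage to the morula (all genes 0.0116%) or on to the blastula (0.801%), in NTC embryos from the 4-cell to the 8-cell stage (0.0564%) or on to the morula (0%), or in NTM embryos at these steps (0.363% and 0%). In those 7 steps without a call, the first in vivo step included, 0 to 6 members had an unadjusted p under 0.05. At the last step 2 of 36 members, Chek2 and Rif1, fell in NTC embryos (all genes 2.62%) and 1 of 37, Xrcc5, rose in NTM embryos (all genes 3.73%).

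The difference between the steps was tested itself, as an interaction in 1 fit over the 4 groups concerned. Against the in vivo step into the 4-cell stage, 4 of 42 members were called lower in NTC (all genes 12%), and these were Polb (-5.47 ± 0.68 on the log2 scale, adjusted p = 0.000236), Apex1 (-5.21 ± 0.49), Ercc1 (-3.10 ± 0.66) and Pms2 (-2.68 ± 0.81). In NTM 5 of 42 were lower (all genes 8.05%), and these were Polb (-5.84 ± 0.82, adjusted p = 0.000944), Apex1 (-5.23 ± 0.57), Ercc1 (-4.50 ± 0.77), Lig3 (-2.64 ± 0.76) and Mdc1 (-2.40 ± 0.65). Under 8 alternatives the calls of Polb and Apex1 were kept in 8 and those of Ercc1 in 6 in each NT type, whereas Pms2 was kept in 1, Mdc1 in 2 and Lig3 in 0. At the step to the 8-cell stage 10 of 40 were higher in NTC (all genes 17%) and 11 of 40 in NTM (all genes 16.5%). Both NT types were set against the same in vivo libraries, so these counts are not independent of each other. From the 1-cell to the 2-cell stage, and at the steps after the 8-cell stage, no member passed this test by limma in either NT type. The shares of all genes at those steps are not given here. A step called in only 1 embryo type is therefore not shown to differ there, as for Ddb2, Ercc3 and Msh6 from the 1-cell to the 2-cell stage.

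The step from the 2-cell straight to the 8-cell stage, a comparison added after the data had been seen, leaves the in vivo 4-cell libraries out. In in vivo embryos 5 of 38 members rose (all genes 13.8%) and 10 fell (all genes 27.8%). The rises were Chek2 (5.25 ± 0.60), Parp2 (3.26 ± 0.62), Xrcc1 (2.37 ± 0.53), Parp1 (2.34 ± 0.78) and Prkdc (2.01 ± 0.44), on the log2 scale, and the falls included Chek1 (-3.0 ± 0.38), Palb2 (-2.96 ± 0.62) and Rad52 (-2.88 ± 0.63). NTC embryos had 3 of 38 rises and 4 falls (all genes 14.1% and 21%), and NTM embryos 4 of 36 and 4 (all genes 17.9% and 21.9%). The fall of Chek1 (-2.46 ± 0.39 and -1.37 ± 0.45) and the rise of Chek2 (3.83 ± 0.61 and 4.53 ± 0.45) passed in NTC and NTM as well. Scaling to nuclear genes gave 6 rises and 3 falls in NTC and 6 rises and no falls in NTM embryos. By limma the difference from the in vivo change over this span passed for no member in NTC (3 of 37 at an unadjusted p under 0.05, all genes 0.219%) and for none in NTM (7 of 38, all genes 0.577%).

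Compared directly at the 4-cell stage, many members had lower values in NT than in in vivo embryos, and so did many other genes. The share of lower members was above that of all genes in NTC and nearer to it in NTM. In NTC embryos 15 of 42 members were lower and none higher, beside 20.4% lower among 11457 genes, with a median log2 difference of -0.82 over the members and -0.39 over all genes. In NTM embryos 10 of 42 were lower (all genes 17.8%) and 1 higher (all genes 3.33%), with medians of -0.94 and -0.69. Both comparisons use the same 3 in vivo libraries. All embryos compared here are labelled as 4-cell. RPKM is scaled to each library's reads, so a lower value is a smaller share of reads and not a measured amount per embryo. Base excision repair gave 5 of the 15 lower members in NTC, nucleotide excision repair 4, homologous recombination 2, sensing and signalling 2, and the MRN complex and end joining 1 each.

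**Figure D3:**
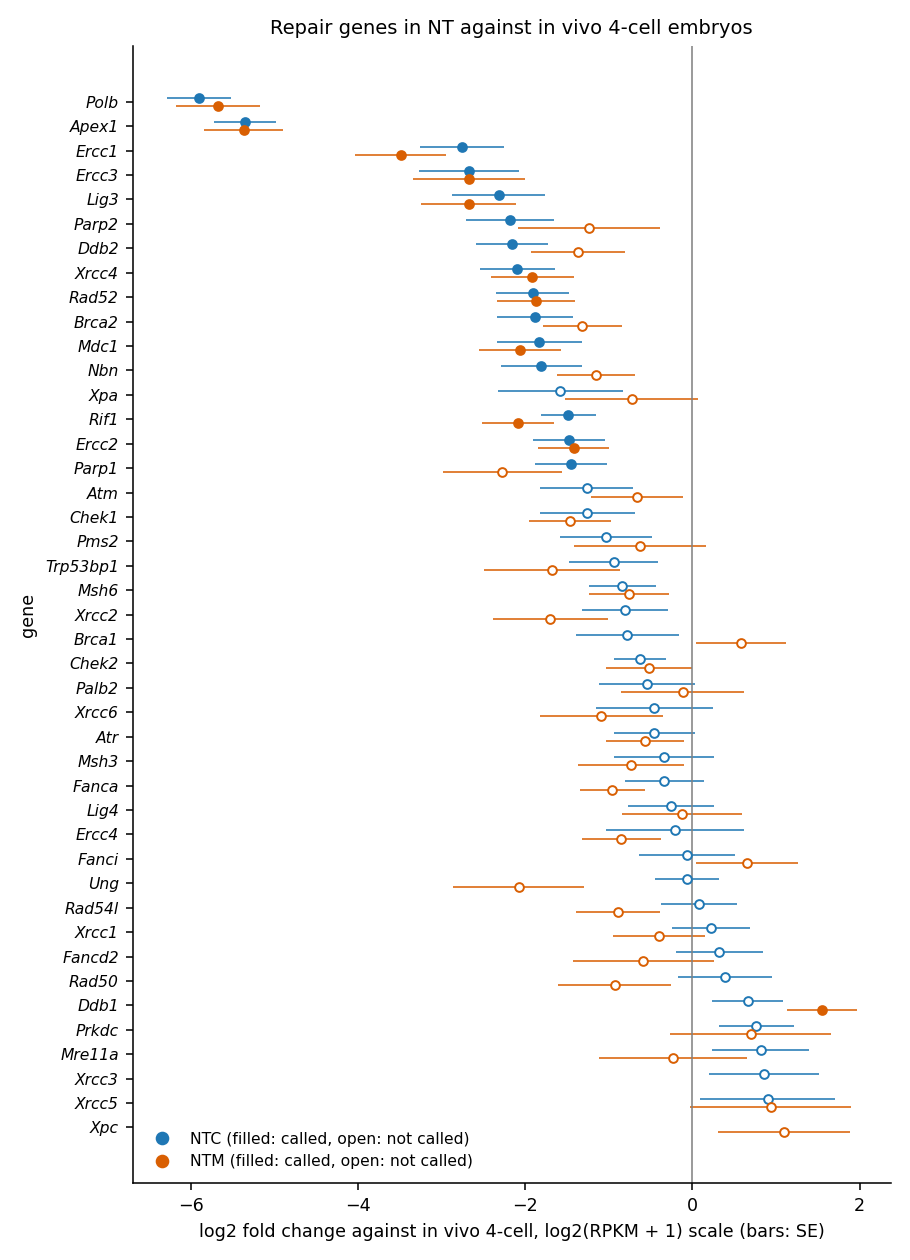
Log2 fold change ± SE (horizontal) of NTC (blue) and NTM (orange) against in vivo 4-cell embryos for 43 genes tested in at least 1 of them (vertical, ordered by the NTC value), with filled points for those that passed the test. Polb and Apex1 lie beyond -5 in both types, and Ddb1 is the only filled point to the right of 0.

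The widest gaps were in base excision repair. Polb measured 74.4, 56.1 and 99.1 RPKM in in vivo, 0.427, 0.138 and 0.238 RPKM in NTC and 0.749, 0 and 0.840 RPKM in NTM 4-cell embryos. All NT libraries were under 1 RPKM and all in vivo libraries over 50 RPKM, with log2 fold changes of NTC -5.90 ± 0.38, adjusted p = 1.8e-05, and NTM -5.68 ± 0.50, adjusted p = 0.000446 by limma. For Apex1, whose values are given above, they were NTC -5.35 ± 0.37, adjusted p = 2.5e-05, and NTM -5.37 ± 0.47, adjusted p = 0.000446. Lig3 measured 5.5, 9.86 and 8.33 RPKM in in vivo against 2.43, 0.510 and 0.0268 RPKM in NTC and 0.0237, 0.0562 and 1.33 RPKM in NTM embryos, again without overlap (NTC -2.32 ± 0.56, adjusted p = 0.0147, and NTM -2.68 ± 0.56, adjusted p = 0.0143). Parp2 and Parp1 were lower in NTC only (-2.18 ± 0.53 and -1.45 ± 0.43). In NTM Parp2 was -1.24 ± 0.85 (adjusted p = 0.337), with 1 NTM library above all in vivo ones, and Parp1 -2.27 ± 0.71 (adjusted p = 0.0557). Xrcc1 and Ung did not pass in either type (Xrcc1 0.22 ± 0.47 in NTC and -0.40 ± 0.55 in NTM, Ung -0.06 ± 0.38 and -2.08 ± 0.78).

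In nucleotide excision repair Ercc1 measured 27.7, 17.1 and 12 RPKM in in vivo, 3.23, 2.01 and 0.721 RPKM in NTC and 0.499, 0.362 and 1.33 RPKM in NTM embryos (NTC -2.75 ± 0.50, adjusted p = 0.00398, and NTM -3.49 ± 0.55, adjusted p = 0.00445). Ercc3 measured 0.739, 0.923 and 4.68 RPKM in NTC and 2.64, 0.253 and 3.20 RPKM in NTM embryos, and its in vivo values are given above (NTC -2.67 ± 0.59, adjusted p = 0.0104, and NTM -2.67 ± 0.67, adjusted p = 0.0268). Ercc2 was at 0, 0 and 0.0468 RPKM and 0.152, 0 and 0.0260 RPKM (NTC -1.48 ± 0.43, adjusted p = 0.0329, and NTM -1.42 ± 0.42, adjusted p = 0.0491). None of these 3 genes overlapped between in vivo and NT embryos. Ddb2 was lower in NTC (0, 0 and 0.143 RPKM; -2.16 ± 0.43, adjusted p = 0.0065), and in NTM it measured 0, 1.20 and 1.67 RPKM (-1.37 ± 0.56, adjusted p = 0.121). Ddb1 was higher in NTM (105, 89.8 and 82.9 RPKM; 1.55 ± 0.42, adjusted p = 0.0338) with all NTM above all in vivo libraries, and 0.66 ± 0.42 (adjusted p = 0.278) in NTC. The Ddb1 call was lost without any 1 of the in vivo 4-cell libraries, without NTM 4-cell replicate 1, with the replicate block and with no filter on low values. Ercc2 passed under neither scaling in either type, and Ercc3 under both in NTC and neither in NTM.

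Outside the excision pathways, Rif1 measured 131, 79.7 and 81.7 RPKM in in vivo, 24.0, 38.9 and 39.3 RPKM in NTC and 22.4, 14.4 and 31.1 RPKM in NTM embryos (NTC -1.49 ± 0.33, adjusted p = 0.00997, and NTM -2.08 ± 0.43, adjusted p = 0.0138). Mdc1 measured 1.31, 0.0569 and 0.171 RPKM in NTC and 0.0774, 0.524 and 0.0877 RPKM in NTM (NTC -1.83 ± 0.51, adjusted p = 0.027, and NTM -2.06 ± 0.49, adjusted p = 0.0225). Rad52 and Xrcc4 were lower as well (Rad52 NTC -1.91 ± 0.44, adjusted p = 0.012, and NTM -1.87 ± 0.47, adjusted p = 0.0269, Xrcc4 NTC -2.09 ± 0.45, adjusted p = 0.00882, and NTM -1.92 ± 0.49, adjusted p = 0.0298). In each of these 4 genes every in vivo library was above every NT library. In NTC alone Brca2 (-1.88 ± 0.45, adjusted p = 0.0147) and Nbn (-1.81 ± 0.49, adjusted p = 0.0241) were lower, and NTM gave Brca2 -1.32 ± 0.47 (adjusted p = 0.0854) and Nbn -1.15 ± 0.47 (adjusted p = 0.118). The checkpoint kinases did not pass, with Chek1 at -1.26 ± 0.57 (adjusted p = 0.135) in NTC and -1.47 ± 0.49 (adjusted p = 0.0698) in NTM, and Chek2 at -0.62 ± 0.31 (adjusted p = 0.169) and -0.52 ± 0.51 (adjusted p = 0.487). For Brca2 the in vivo values lay above all NT values in both types.

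**Figure D4:**
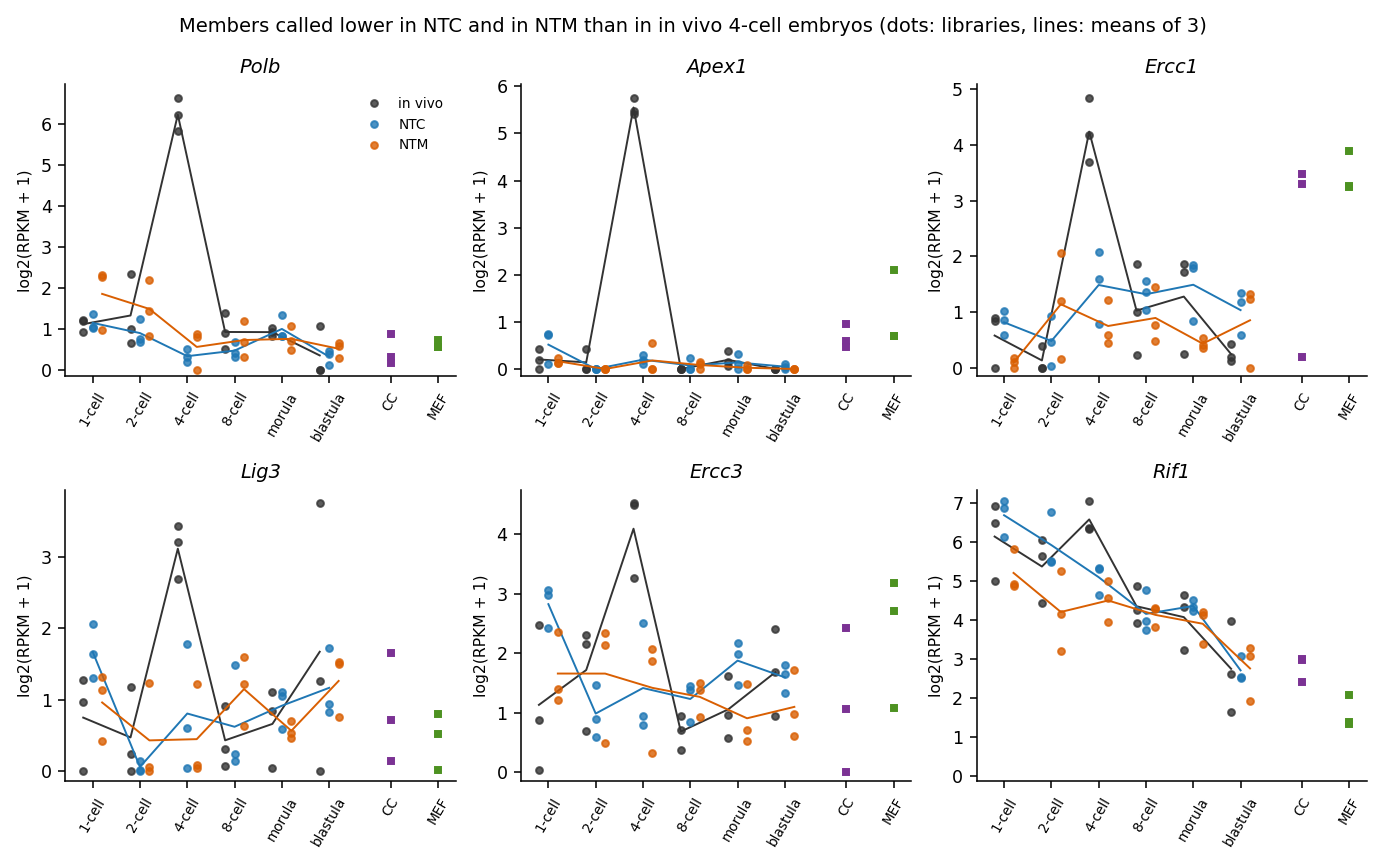
log2(RPKM + 1) (vertical) of Polb, Apex1, Ercc1, Lig3, Ercc3 and Rif1 at the 6 stages (horizontal) for in vivo, NTC and NTM embryos and in CC and MEF libraries (squares), with 1 point per library and a line through the embryo group means. The in vivo points rise to a peak at the 4-cell stage, where no NT point of these genes reaches the lowest in vivo point.

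Several measures moved with this comparison, and their part in it was not tested. Mitochondrial genes took 5.68% to 8.87% of reads in the in vivo and 29.6% to 40.4% in the NT 4-cell libraries. The median log2 difference over all genes followed exon length, from -0.92 (NTC) and -0.98 (NTM) for genes of at most 1000 nt to -0.10 and -0.35 for genes over 8000 nt. The members called lower in NTC had a median exon length of 4170 nt, and those not called 5927 nt. Scaling by the median ratio left 10 members lower in NTC and 4 in NTM (1 higher), and scaling to nuclear genes 7 (1 higher) and 4 (1 higher), and these scalings moved the all-gene median to -0.03 and 0.26 in NTC and to -0.11 and -0.04 in NTM. Apex1, Ercc1 and Polb passed under both scalings in both types. Without in vivo 4-cell replicates 2 or 3 the NTC count was 7 and 9 in place of 15, and without in vivo 4-cell replicates 1, 2 or 3 the NTM count was 4, 3 and 3 in place of 11. The shares of all genes called under these settings are not given here, so these counts are not set against a background.

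At the other stages few members passed between NT and in vivo embryos. At the 1-cell stage Xrcc6 alone, of 38 tested, was higher in NTC (all genes 0.988%), and without in vivo 1-cell replicate 1, which had few genes, 4 members were higher and 3 lower. The share of all genes called without that library is not given here, so the latter counts are not set against a background. By limma no member passed between NTM and in vivo 1-cell embryos (all genes 1.28%), at the 2-cell stage (all genes 0.152% in NTC and 0.141% in NTM), at the 8-cell stage (1.46% and 2.02%) or in morulae (0.0321% and 0.168%). In these 7 comparisons 1 to 6 members had an unadjusted p under 0.05. Between NTM and NTC embryos no member passed by limma at the 2-cell stage (all genes 0%), the 4-cell stage (0%), the 8-cell stage (0.0507%), in morulae (0%) or in blastulas (0%), with 0 to 6 members at an unadjusted p under 0.05.

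In blastulas the median over all genes lay above that of in vivo embryos in both NT types, and the test called 1 member. Xrcc4, 1 of 29 members tested, was higher in NTC blastulas (all genes 8.81%). It was 0 in all 3 libraries in vivo and 1.33, 2.36 and 2.93 RPKM in NTC blastulas (log2 fold change 1.65 ± 0.40, adjusted p = 0.0454), at least 34.7-fold higher against 3 reads in each in vivo library. In NTM blastulas Xrcc4 measured 2.51, 1.98 and 0.700 RPKM (log2 fold change 1.38 ± 0.44, adjusted p = 0.101), above all in vivo values as well. By limma no member of 30 passed in NTM (all genes 0.746%), where 7 had an unadjusted p under 0.05. The median log2 difference was 0.80 over the members and 0.85 over all genes in NTC, and 0.90 and 0.86 in NTM. Without NTM blastula replicate 3 the NTM count was 8, and without NTC blastula replicate 3 the NTC count was 5. It was 2 without NTC blastula replicate 1 and 0 without NTC blastula replicate 2, or without in vivo blastula replicate 1 or 3.

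The low in vivo blastula values were not shared by all 3 libraries in every gene. Chek1 measured 0.371, 135 and 0.733 RPKM, so that 1 of 3 libraries was high and the others were near 0. Brca1 (0.0895, 22.7 and 0.571 RPKM), Nbn (45.8, 0.692 and 0 RPKM) and Chek2 (0.0424, 9.03 and 0.0580 RPKM) were also set by single libraries, whereas Ddb1 and Msh6 (54.6, 12.6 and 106 RPKM) were present in all. In NTC blastulas Chek1 measured 9.41, 17.4 and 6.89 RPKM and in NTM blastulas 11.8, 13.0 and 14.0 RPKM. The NT blastula libraries lay closer together in this gene than the in vivo ones.

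Some members differed between the 2 kinds of NT embryo at the 1-cell stage, before the embryo makes most of its own RNA. The shares called were near those of all genes. In NTM 1-cell embryos 3 of 38 members were higher (all genes 5.64%) and 4 lower (all genes 14.2%) than in NTC embryos, with a median log2 difference of -0.31 over the members and -0.19 over all genes. Msh6 measured 81.8, 74.4 and 95.8 RPKM in NTM and 25.0, 30.4 and 28.9 RPKM in NTC embryos (log2 fold change 1.54 ± 0.19, adjusted p = 0.00126). The groups were far apart, and the in vivo libraries spread between them and below (14.9, 45.6 and 31.2 RPKM). Palb2 measured 14.0, 9.46 and 15.0 RPKM and 6.84, 4.29 and 2.9 RPKM (log2 fold change 1.32 ± 0.34, adjusted p = 0.0252), and Brca1 11.6, 11.7 and 16.9 RPKM and 4.93, 5.89 and 5.97 RPKM (log2 fold change 1.11 ± 0.27, adjusted p = 0.0202). These 2 partners of recombination were higher in every NTM than in every NTC library.

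The lower members were Nbn, the Ku gene Xrcc5, Rif1 and Xrcc3. Nbn measured 0.697, 0.748 and 7.25 RPKM in NTM and 11, 30.4 and 21.4 RPKM in NTC embryos (log2 fold change -2.81 ± 0.64, adjusted p = 0.0146). Xrcc5 measured 2.40, 9.96 and 5.69 RPKM and 18.5, 28.5 and 24.1 RPKM (log2 fold change -1.95 ± 0.42, adjusted p = 0.0117). Both had their low values in NTM libraries, without overlap. Rif1 measured 28.4, 55.2 and 29.5 RPKM and 68.8, 117 and 132 RPKM (log2 fold change -1.48 ± 0.33, adjusted p = 0.0128), and Xrcc3 6.86, 2.02 and 2.40 RPKM and 11.2, 10.1 and 11.4 RPKM (log2 fold change -1.46 ± 0.40, adjusted p = 0.0292). These also did not overlap. Chek1 was 0.77 ± 0.15 on the log2 scale (adjusted p = 0.00677), so its change stayed under the 2-fold limit. The count was 1 without NTC 1-cell replicate 2 or 3, 4 without NTM 1-cell replicate 3, and 0 in a fit over all 20 groups.

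**Figure D5:**
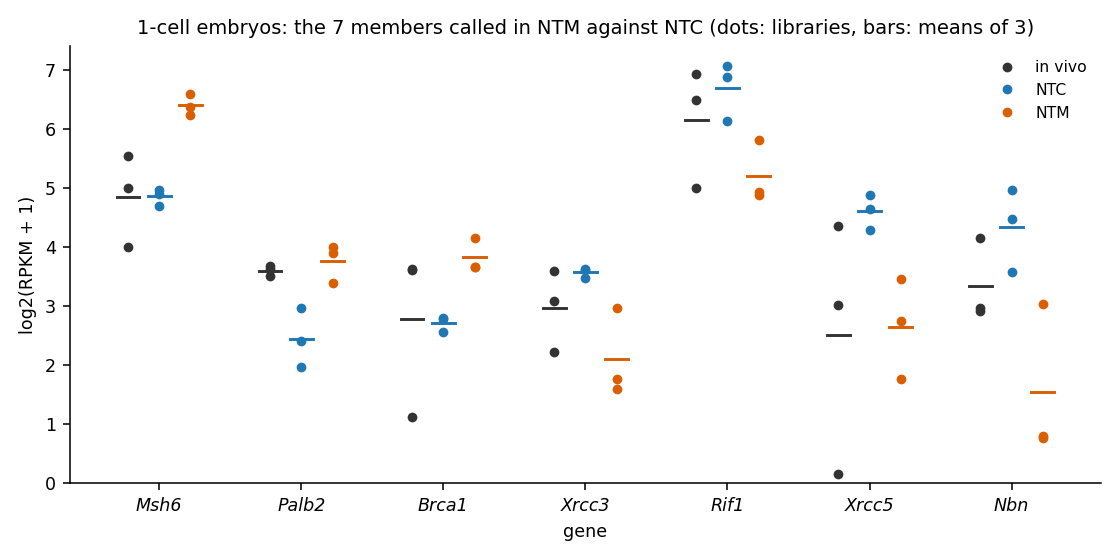
log2(RPKM + 1) (vertical) of the 7 genes that differed between NTM and NTC 1-cell embryos (horizontal), with 1 point per library for in vivo, NTC and NTM embryos and a bar at each group mean. NTM points lie above NTC points for Msh6, Palb2 and Brca1 and below them for Xrcc3, Rif1, Xrcc5 and Nbn.

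Counted in both directions together, members differed between 1-cell NT embryos and their donor cells no more often than all genes. None passed between the donors. By limma none of 35 members passed between MEFs and CCs (4 at an unadjusted p under 0.05, all genes 6.29%), although libraries of a donor often disagreed, as in Xrcc5 (0.0209, 0.0248 and 16.0 RPKM in CC and 35.8, 30.5 and 0 RPKM in MEF libraries). Against CCs 13 of 41 members were higher (all genes 29.3%) and 3 lower (all genes 20.8%) in NTC 1-cell embryos. Against MEFs 17 of 40 were higher (all genes 25.2%) and 5 lower (all genes 29.9%) in NTM 1-cell embryos. The median log2 difference was 0.75 over the members and 0.16 over all genes for CCs, and 1.05 and -0.53 for MEFs. Median-ratio scaling gave 21 higher and 3 lower against MEFs. Without any 1 NTC 1-cell library the count against CCs was 10 in place of 16. Chek1 had the largest difference of the members in both. It measured 0.237, 0.143 and 0.171 RPKM in CC and 0.154, 8.15 and 0.415 RPKM in MEF libraries, against over 170 RPKM in every NT 1-cell library (log2 fold change 7.37 ± 0.23, adjusted p = 1.3e-05 for NTC, and log2 fold change 7.08 ± 0.77, adjusted p = 0.000292 for NTM).

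Few members differed from the donor at all 6 stages, 1 of 34 tested at all of them against CCs and 1 of 25 against MEFs, beside 10.8% and 15.6% of all genes so tested. Chek1 was higher in NTC embryos than in CCs at all 6 stages, by 3.26 (blastula) to 7.37 (1-cell) on the log2 scale. Ercc1 was lower in NTM embryos than in MEFs (8.45, 8.63 and 13.8 RPKM) at all 6 stages, with log2 fold changes of -2.33 to -3.37. Of the members tested at all 6 stages, 16 of 34 passed at none against CCs and 9 of 25 at none against MEFs, beside 44.7% and 31.3% of all genes so tested. Members lower in the 1-cell embryo than in the donor were Parp1 (-2.9 ± 0.35), Parp2 (-2.24 ± 0.66) and Ddb1 (-1.93 ± 0.19) against CCs, and Ercc1 (-3.37 ± 0.32), Xrcc1 (-3.28 ± 0.30), Nbn (-2.38 ± 0.72), Ddb1 (-1.65 ± 0.21) and Prkdc (-1.10 ± 0.36) against MEFs, on the log2 scale. Prkdc kept its call in 3 of 12 alternatives. Parp1 measured 11.2, 21.8 and 14.4 RPKM in CC libraries against 1.16, 0.723 and 1.77 RPKM in NTC 1-cell embryos. Xrcc1 measured 12.6, 13.4 and 11.1 RPKM in MEF libraries against 0.133, 0.395 and 0.634 RPKM in NTM 1-cell embryos, and neither pair overlapped.

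Among the other repair genes 30 of 96 rose and 14 fell at the in vivo step from 2 to 4 cells, beside 31.4% and 20.8% of all genes, so the share that rose was at the background. Gtf2h5, a small TFIIH subunit, went from 0.167, 1.81 and 0.0785 RPKM to 260.0, 139 and 150.3 RPKM (log2 fold change 6.86 ± 0.50, adjusted p = 6.2e-05), and H2ax, the histone marked beside breaks, from 0, 2.13 and 1.14 RPKM to 25.5, 130.2 and 46.3 RPKM (log2 fold change 4.86 ± 0.70, adjusted p = 0.000977). Neil3, a glycosylase, went from 109, 113 and 36.3 RPKM to 2.21, 0.735 and 1.02 RPKM (log2 fold change -5.12 ± 0.54, adjusted p = 0.000257), and Rpa3, a subunit of the protein that coats single strands, from 84.0, 201 and 255 RPKM to 13.2, 12.1 and 18.1 RPKM (log2 fold change -3.43 ± 0.48, adjusted p = 0.000893). The 4 genes were those with the largest changes, and none overlapped between the stages.

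Against in vivo 4-cell embryos 22 of 95 other repair genes were lower and 4 higher in NTC, and 14 of 94 lower and 2 higher in NTM embryos. These shares of lower genes are near the 20.4% and 17.8% of all genes. Gtf2h5 had the largest negative fold change in both, at 1.88, 1.99 and 1.37 RPKM in NTC and 4.79, 3.90 and 3.19 RPKM in NTM embryos (-6.02 ± 0.36 and -5.17 ± 0.43 on the log2 scale). Tipin, which steadies the replication fork for Chek1 signalling, measured 670.1, 535 and 654 RPKM in in vivo and 43.6, 64.6 and 37.9 RPKM in NTC embryos (log2 fold change -3.67 ± 0.26, adjusted p = 2.9e-05). Nhej1, which works with Xrcc4 and Lig4, measured 23.3, 17.3 and 29.4 RPKM in in vivo and 0.0514, 0 and 4.08 RPKM in NTM embryos (log2 fold change -3.77 ± 0.73, adjusted p = 0.0103). Usp1, which removes ubiquitin from the Fancd2 clamp, went the other way, with 62.0, 63.4 and 93.7 RPKM in in vivo, 565, 462 and 604 RPKM in NTC and 268, 936 and 642 RPKM in NTM embryos (2.9 ± 0.25 and 2.91 ± 0.47). Ercc5, the 3′ nuclease of excision repair, was higher in NTC (7.20, 12.2 and 5.99 RPKM against 1.49, 0.0458 and 0.585 RPKM; log2 fold change 2.51 ± 0.51, adjusted p = 0.00694), and Smug1, another uracil glycosylase, in NTM (8.81, 10.6 and 16.1 RPKM against 3.82, 3.07 and 1.27 RPKM; log2 fold change 1.82 ± 0.54, adjusted p = 0.0478). All of these differences were without overlap between the groups compared.

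In blastulas 8 of 81 other repair genes were higher and 1 lower in NTC, and 1 of 84 higher in NTM embryos, where 8.81% of all genes were higher in NTC and 0.746% differed in NTM. Wee1, the kinase that holds back mitosis, measured 0.0656, 0.0602 and 0 RPKM in in vivo, 12.8, 20.4 and 15.1 RPKM in NTC and 17.1, 21.5 and 17.1 RPKM in NTM blastulas (log2 fold change 4.01 ± 0.55, adjusted p = 0.025 for NTC, and log2 fold change 4.23 ± 0.62, adjusted p = 0.0494 for NTM). Rad9a, of the clamp that activates Atr, measured 0, 0.171 and 0.0851 RPKM in in vivo and 11.3, 9.53 and 6.84 RPKM in NTC blastulas (log2 fold change 3.21 ± 0.52, adjusted p = 0.0267). Cetn2, which stabilises Xpc, was lower, with 73.6, 130.0 and 66.2 RPKM in in vivo and 8.24, 9.10 and 18.1 RPKM in NTC blastulas (log2 fold change -2.84 ± 0.61, adjusted p = 0.0366). None of the 3 overlapped between the groups. NTM 1-cell embryos had 7 of 88 other repair genes higher and 11 lower than NTC embryos, near the 5.64% and 14.2% of all genes.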

How the data were processed

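RNA of single embryos and of donor cells was amplified after poly(A) tailing and sequenced. According to the study's methods, the authors mapped reads with TopHat and Bowtie2 and counted them with HTSeq. The submitters' processing notes list Bowtie 0.12.2 and mm8. Whether counting used strand is not given in the sources used here. The deposited table holds RPKM made by the authors from read counts. At GENCODE M21 exon lengths 79.0% of low values (up to 200 reads, tolerance 0.05 reads) came out whole, so counts were not rebuilt and no count model was run, although the study used one (DESeq) and called its unit FPKM. ERCC spike-ins were not analysed here.

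Groups of 3 libraries were compared on log2(RPKM + 1), which understates changes of low genes, with limma 3.58.1 (R 4.3.3, lmFit and eBayes with trend) over all genes with a mean of at least 0.5 RPKM in the compared libraries. Calls were set at 0.05 for the Benjamini-Hochberg adjusted p with a minimum size of 1 on the log2 scale. There were 46 group comparisons and 10 interaction tests, and 5 comparisons added after the data had been seen. Members and lists were chosen with earlier results of these data known. Named by rule were, in each role, the members with the highest mean and the widest range of group means, members called in both NT types against in vivo at a stage, in NTM against NTC, in MEF against CC or in no comparison, those under 0.1 RPKM in an embryo group and over 1 RPKM in another, and the 2 largest rises and falls of the other repair genes. Remaining members were named after their values were seen, so that all 44 have an account. On simulated data 62.5% of 200 genes changed by 3 on the log2 scale were recovered with 7 false calls at the 4-cell size of NTC against in vivo (11457 genes), and 21.5% with none at that of the blastulas (9288 genes). Alternatives were the pseudocount, the filter, 2 scalings, the replicate block, dropping the fold limit, all 20 groups in 1 fit, and leaving out each library. Promoters and symbols came from RefSeq tables (GRCm38.p6), read with Python 3.11.15 and pandas 2.3.3, and exon overlaps from GENCODE M21 with bedtools 2.31.1.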

Additional observations from a re-analysis of the deposited data

Results flagged for a closer look

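Every result here is a difference between an NT and the in vivo change over the same step, in log2 units and tested as an interaction with limma over all genes (adjusted p under 0.05 and a size of at least 1). All of them use the in vivo 4-cell libraries, which stood apart from the other embryos, and both NT types share them, so the 30 values are not independent of each other. From the 2-cell to the 4-cell stage the change was lower in NTC than in in vivo embryos by -5.47 for Polb, -5.21 for Apex1, -3.10 for Ercc1 and -2.68 for Pms2. In NTM embryos it was lower by -5.84 for Polb, -5.23 for Apex1, -4.50 for Ercc1, -2.64 for Lig3 and -2.40 for Mdc1. Of 8 alternatives the NTC call of Pms2 was kept in 1, and the NTM calls of Mdc1 in 2 and of Lig3 in 0.

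From the 4-cell to the 8-cell stage the change was higher in NTC than in in vivo embryos, by 5.45 for Polb, 5.43 for Apex1, 3.62 for Ddb2, 3.22 for Ercc3, 3.05 for Ercc1, 2.95 for Brca2, 2.84 for Rad52, 2.51 for Lig3, 2.18 for Xrcc4 and 2.07 for Ung. In NTM embryos it was higher by 5.48 for Polb, 5.45 for Apex1, 4.10 for Ung, 3.40 for Lig3, 3.36 for Ercc1, 3.35 for Rad52, 3.25 for Ercc3, 2.52 for Brca2, 1.92 for Chek1, 1.86 for Rif1 and 1.78 for Xrcc4. Over the whole span from the 2-cell to the 8-cell stage, which leaves the 4-cell libraries out and was added after the data had been seen, no member passed the same test by limma, while 3 members in NTC and 7 in NTM had an unadjusted p under 0.05.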

How the results depend on the processing

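Values are counts of members called, and the cause of a change was not tested. The shares of all genes called under these settings are not given here. With no filter on low values the in vivo steps gave 10 (2-cell to 4-cell) and 13 (4-cell to 8-cell), NTC 1-cell to 2-cell 1, NTM 1-cell to 2-cell 2, NTM 2-cell to 4-cell 4, NTC and NTM against in vivo 4-cell 6 each, NTC blastulas 0, NTM against NTC 1-cell 2 and NTC 1-cell against CC 9. Median-ratio scaling gave 11 for in vivo 4-cell to 8-cell, 5 for NTM against in vivo 4-cell, 0 for NTC blastulas and 3 for the NTM interaction from the 2-cell to the 4-cell stage. Scaling to nuclear genes gave 13, 5, 3 and 3 for these, 10 for NTC 1-cell to 2-cell, 8 for NTC against in vivo 4-cell and 2 for NTM blastulas. A pseudocount of 0.1 gave 5 in NTC and 5 in NTM blastulas. In 1 fit over all groups the counts were 11 and 15 (NTC and NTM 2-cell to 4-cell), 3 and 4 (NTC and NTM blastulas), 0 (NTM against NTC 1-cell) and 5 (MEF against CC). With the replicate block they were 0 for NTC blastulas, 7 for NTM against in vivo 4-cell and 3 for the NTM interaction. The numbers do not pair the libraries, since in 0 of 49 comparisons did every same-numbered pair correlate above 0.1, and in 4 every library correlated best with its own number.

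Leaving out each library gave 10 to 19 (in vivo 2-cell to 4-cell), 14 to 20 (in vivo 4-cell to 8-cell), 0 to 9 (NTC 1-cell to 2-cell), 5 to 7 (NTC 2-cell to 4-cell), 1 to 5 (NTM 1-cell to 2-cell), 4 to 6 (NTM 2-cell to 4-cell), 7 to 14 (NTC against in vivo 4-cell), 3 to 13 (NTM against in vivo 4-cell), 0 to 5 (NTC blastulas), 0 to 8 (NTM blastulas), 1 to 10 (NTM against NTC 1-cell), 10 to 17 (NTC 1-cell against CC), 17 to 22 (NTM 1-cell against MEF), 0 to 1 (MEF against CC, 1 without CC replicate 2), and 2 to 4 (2 without replicate 3) and 2 to 3 (2 without replicate 1 or 2 and 3 without replicate 3) for the NTC and NTM interactions. Of 141 gene results 0 reversed and 64 kept their call in every setting. Besides those marked above, transition calls kept in 5 or fewer of 12 were Ogg1 (in vivo 2-cell to 4-cell), Ddb2 and Lig3 (NTC 1-cell to 2-cell) and Parp1 and Xrcc4 (NTC 2-cell to 4-cell). Against in vivo 4-cell embryos they were Ercc2, Mdc1, Nbn and Parp1 in NTC and Ercc2, Rad52 and Xrcc4 in NTM. In 1-cell embryos against donor cells they were Ddb2, Rad52 and Ung in NTC and Pms2, Prkdc and Xrcc4 in NTM. Xrcc3 (NTM against NTC 1-cell) and Xrcc4 (NTC blastulas) were each kept in 5. The self-test's share for the blastulas holds for 200 changed genes among 9288. In the NTC blastula data 818 genes were called higher, so that share need not hold for these libraries.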
